A study of Bos taurus with 28 samples.

Results

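Galactosyl-, sialyl- and core glycan transferases were examined in liver biopsies of dry Holstein cows on the Affymetrix Bovine GeneChip. The genes were B4GALT1, B4GALT3, B4GALT5, ST6GAL1, ST3GAL1, ST3GAL4, ST3GAL5, FUT8, MGAT1 and MGAT2, and every probe set (a group of probes read as 1 signal) annotated with one of these symbols alone was taken. The array annotation gave 18 probe sets for 9 of the 10 genes, where the whole array held 24016 probe sets other than controls and 9155 gene symbols. MGAT2, which starts the second branch of N-glycans, had no probe set under this rule. The genes were selected on the group differences in signal of B4GALT1 and ST6GAL1 in an earlier look at these data, so that the group values of this pair are a description with no test. Where a gene had more than 1 probe set, they are told apart by their rank in mean log2 signal over the 28 arrays, the brightest first, and the plots give this rank after the gene name.

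All cows were ovariectomized and non-lactating, and each hormone treatment lasted 14 days. There were 7 arrays for cows without hormone (CO), 7 for an estradiol implant in the ear (E2T), 7 for progesterone (P4T) and 7 for both hormones (E2P4T). According to the study's methods the progesterone came from vaginal inserts and cows passed through the treatments in turn, while the labels call the exposure intradermal and name no cow or period. By that design arrays of different groups share cows, but which arrays do cannot be told. The tests here treat all arrays as independent, whereas the study's model held cow and period. The p-values measure only the spread between these arrays, and an absence of small ones holds for this unpaired comparison. Ovariectomy was common to all groups, so the comparison is of hormones added back to cows without ovaries.

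Glycan transferases sit in the Golgi and build the sugar chains of secreted and membrane glycoproteins and of glycolipids, each adding 1 sugar in a fixed linkage. MGAT1 opens the branches of N-glycans, FUT8 adds fucose to their core, B4GALT enzymes add galactose to the branches, and sialyltransferases close the ends with sialic acid. In liver these enzymes finish most plasma glycoproteins, and galactose ends left without sialic acid are bound by the asialoglycoprotein receptor of hepatocytes.

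Signals were scaled by the authors to the same trimmed mean on each array, and all values below are log2 of that signal unless stated. The median signal of an array lay between 178 and 322 on 26 arrays, and reached 439 on P4T number 4 and 512 on E2P4T number 5. Hybridisation spikes averaged 12.95 to 16.26 on the 26 arrays, with CO number 3 (16.26) and E2T number 3 (15.42) the highest of them, against 17.31 on P4T number 4 and 18.27 on E2P4T number 5. The mean of 19 hepatocyte genes was 14.91 to 15.52 on 26 arrays and 15.06 on P4T number 4, but 9.81 on E2P4T number 5. On that array 18 of 19 hepatocyte genes lay below all other arrays, while 7 of 8 kidney epithelium genes and 7 of 8 bile duct epithelium genes lay above them, so its marker genes went against its liver label. The differences from CO of all 18 probe sets are therefore given with and without P4T number 4 and E2P4T number 5. In tissue samples such as these, fewer cells of a type and less RNA per cell cannot be told apart.

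B4GALT1 moves galactose from UDP-galactose onto N-acetylglucosamine, and in the mammary gland it makes lactose together with alpha-lactalbumin. The dimmer of its 2 probe sets lay higher with each hormone than in CO. The CO arrays ran from 5.53 to 9.26 with a median of 8.44. With estradiol they ran from 8.50 to 9.93 (median 8.91), with progesterone from 8.51 to 10.16 (median 8.93) and with both from 8.12 to 10.10 (median 8.96). Each of the 7 arrays of every hormone group lay above the CO mean, as did 4 of the 7 CO arrays, and all 3 groups overlapped with CO. Above the CO median lay all 7 E2T and P4T arrays and 6 of 7 E2P4T arrays. The SD of the CO arrays was 1.27 (n = 7), and the means were 9.19 ± 0.64 for E2T, 9.13 ± 0.59 for P4T and 9.05 ± 0.63 for E2P4T (SD, n = 7 each). The mean difference from CO was 1.19 for E2T, 1.13 for P4T and 1.05 for E2P4T, each with a standard error of 0.42, or 2.28-fold, 2.19-fold and 2.08-fold.

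CO number 3, at 5.53, was the lowest of all 28 arrays for this probe set. Without it the differences were 0.78 for E2T, 0.72 for P4T and 0.64 for E2P4T, all still above 0. Without P4T number 4 and E2P4T number 5 they were 1.19, 0.96 and 1.10. The hormone groups were close to each other, with E2P4T differing from E2T by -0.14 (standard error 0.42).

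The brighter B4GALT1 probe set lay above the median signal of its array on all 28 arrays. The CO arrays ran from 8.88 to 10.92 (median 10.44) and the E2T arrays from 8.99 to 11.71 (median 11.10). P4T arrays ran from 8.81 to 11.42 (median 10.71) and E2P4T arrays from 9.71 to 11.13 (median 10.66). All groups overlapped, and the lowest values of CO, E2T and P4T were those of CO number 3, E2T number 3 and P4T number 4, which are among the 4 arrays with the highest spike signals. The differences from CO were 0.75 for E2T, 0.33 for P4T and 0.28 for E2P4T, each with a standard error of 0.38. They were 0.75, 0.62 and 0.40 in the 26 arrays without the pair that stood apart, and 0.85, 0.40 and 0.18 without all 4 arrays of high spike signals. Without CO number 3 alone they fell to 0.53, 0.12 and 0.06. Both probe sets had a higher mean in every hormone group, and both had CO number 3 as the lowest CO array. Across the 28 arrays their Pearson r was 0.34 and their Spearman rho 0.21, as a description, and r was 0.11 without the 2 arrays farthest from the median. Among the 26 arrays without the pair that stood apart r was 0.55.

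The probe sets most like the brighter one of B4GALT1, among 6170 with 1 symbol and a mean in the upper part of those tested, were those of PSMB2, ARF1 and M6PR. Over the 26 arrays each had a Pearson r of 0.92 with it. Over all 28 arrays the r was 0.88 for PSMB2, a proteasome subunit, 0.81 for ARF1, a small GTPase of Golgi traffic, and 0.90 for M6PR, a receptor that sorts lysosomal enzymes. The points share arrays, scaling and hybridisation, and these r values are descriptions.

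**Figure D1:**
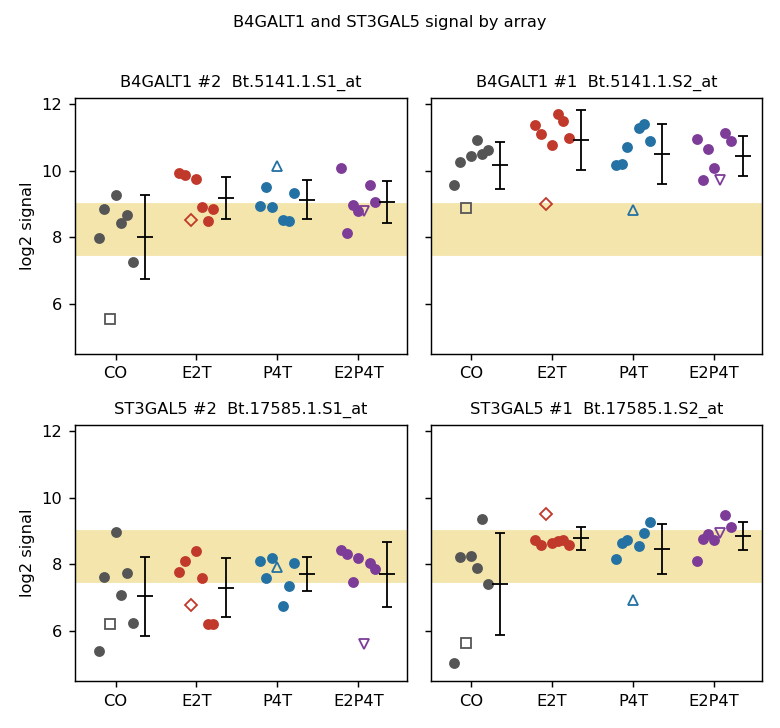
Log2 signal of the 2 probe sets of B4GALT1 (top) and the 2 of ST3GAL5 (bottom) on each of 28 arrays by group, with black bars for mean ± SD and a yellow band for the range of the median signal of the arrays. Open symbols mark P4T number 4 (triangle), E2P4T number 5 (inverted triangle), CO number 3 (square) and E2T number 3 (diamond). For the dimmer B4GALT1 probe set (rank 2) every hormone array lies above the CO mean, as do 4 of 7 CO arrays. For the brighter ST3GAL5 probe set (rank 1) CO number 1 (5.04) and CO number 3 (5.64) lie below all other arrays.

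B4GALT3 is another enzyme that adds galactose to N-glycan branches. The CO arrays of its probe set ran from 8.46 to 10.22 (median 9.49), while the medians with E2T, P4T and E2P4T were 9.02, 9.05 and 9.08. The E2P4T range reached 11.83 through E2P4T number 5, with the other 6 arrays between 8.56 and 9.38. The differences from CO were -0.39 for E2T, -0.25 for P4T and 0.00 for E2P4T (standard error 0.37, limma adjusted p = 0.89, 1 and 1). With the pair of arrays that stood apart left out, the 3 differences lay close together, at -0.39, -0.37 and -0.41 (adjusted p = 0.57, 0.68 and 0.59).

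B4GALT5 makes lactosylceramide, the glycolipid from which gangliosides are built, and both its probe sets were dim. The brighter one exceeded the median signal of its array on only 1 of 28 arrays, P4T number 4 (8.94). It reached the signal minimum for a test on that array alone. Its differences from CO (6.00 ± 1.32, SD, n = 7) were -0.43 for E2T, -0.16 for P4T and 0.13 for E2P4T with a standard error of 0.78 (limma adjusted p = 0.94, 1 and 0.99). Without P4T number 4 and E2P4T number 5 they were -0.43, -0.67 and -0.12 (adjusted p = 0.84, 0.79 and 0.97). The dimmer one exceeded the array median on 0 arrays and never reached a signal of 350, the minimum for a test. Its untested differences were 0.59, 0.61 and 0.72 (standard error 0.87), and 0.59, 0.66 and 0.40 in the 26 arrays. The pair of probe sets did not move together over the 28 arrays (r = -0.04, permutation p = 0.83, adjusted 0.87 over 24 pairs of probe sets of 1 gene, rho = -0.04, permutation p = 0.85, adjusted 0.94, and r = -0.01 without the 2 farthest arrays), so that no direction can be given for B4GALT5.

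ST6GAL1 places sialic acid on the galactose ends of N-glycans of secreted liver proteins, and is also made by B cells. It had 7 probe sets, of which 3 passed the signal minimum, the fourth brightest only through E2P4T number 5. The probe set that differed most was the second brightest. Its CO arrays ran from 6.25 to 8.68 (median 7.07). The range was 2.26 to 6.97 with estradiol (median 3.85), 4.36 to 9.58 with progesterone (median 6.18) and 2.93 to 8.01 with both (median 4.06). Of the 7 arrays in each group, 5 of E2T, 4 of P4T and 5 of E2P4T lay below the lowest CO array, yet every hormone group overlapped with CO. The difference from CO was -2.71 for E2T, -0.98 for P4T and -2.43 for E2P4T, each with a standard error of 0.84, so that the mean was 0.152, 0.507 and 0.186 times that of CO.

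This probe set was dim, above the median signal of its array on only 3 of 28 arrays. On the linear scale its median signal was 134 without hormone, 14.4 with estradiol, 72.4 with progesterone and 16.7 with both, and low signals are spread widely by a log2 scale. On the scale of log2 of the signal plus 50 the differences were -1.34, -0.55 and -1.16, of the same sign and about as far apart in proportion. The highest P4T and E2P4T arrays were P4T number 4 (9.58) and E2P4T number 5 (8.01), and without them the differences were -2.71, -1.52 and -2.94. E2T differed from P4T by -1.73 (standard error 0.84), and by -1.20 (0.73) without these arrays. E2P4T differed from E2T by 0.29, and by -0.23 without them, so that E2T and E2P4T have no stable order.

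The brightest ST6GAL1 probe set, above the array median on 21 of 28 arrays, did not show this pattern. Its CO arrays ran from 7.47 to 9.43 (median 8.21), and the medians with E2T, P4T and E2P4T were 7.74, 7.84 and 8.07. The differences from CO were -0.19 for E2T, -0.23 for P4T and -0.01 for E2P4T (standard error 0.50). The highest arrays of their groups were P4T number 4 (9.92) and E2P4T number 5 (10.36), and without them the differences were -0.19, -0.56 and -0.37.

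The other 5 ST6GAL1 probe sets were dim. The fourth brightest exceeded the array median only on E2P4T number 5 (10.00), and its differences were -1.25, -1.04 and -1.02 for E2T, P4T and E2P4T (standard error 1.03), and -1.25, -1.03 and -1.92 without that array and P4T number 4. The remaining 4 exceeded it on 0 arrays and were not tested. The third brightest differed from CO by -0.52, -0.23 and -0.56 (standard error 0.58), and by -0.52, -0.49 and -0.64 in the 26 arrays. The fifth differed by -1.19, -0.67 and -0.44 (0.73), with 5 of 7 E2T arrays below the lowest CO array, and by -1.19, -1.28 and -0.85 in the 26 arrays. The probe set of rank 6 differed by -1.25, -0.48 and -1.42 (0.81), and by -1.25, -1.04 and -1.59 in the 26 arrays. The dimmest, of rank 7, differed by -0.62, -0.54 and -0.14 (1.02), and by -0.62, -1.11 and -0.10 in the 26 arrays. With all 28 arrays the 7 probe sets had a mean below CO in all 3 hormone groups, from -0.01 to -2.71, and the brightest carried the smallest differences for E2T and E2P4T. This common direction did not hold without single arrays, since 6 of the 21 differences changed sign when 1 array was left out. The brightest reached 0.02 for E2T without CO number 7, 0.11 for P4T without P4T number 2 and 0.32 for E2P4T without E2P4T number 1. The third brightest reached 0.09 for P4T without P4T number 7, and the dimmest 0.08 for P4T and 0.47 for E2P4T without CO number 3. All 7 are annotated with the same gene and are not independent measurements of it.

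The array pattern of these probe sets was shared only in part. Among 21 pairs of ST6GAL1 probe sets Pearson r over the 28 arrays ran from -0.14 to 0.63, and over the 26 arrays from -0.17 to 0.53. The second brightest and the brightest had r = 0.60 over the 28 arrays and 0.48 over the 26. These r values are descriptions and hold the group differences by which the genes were selected. The probe sets most like the brightest in the 26 arrays, among 6171 candidates, were those of CAMK1, a calmodulin-dependent kinase (r = 0.74, and 0.85 over 28 arrays), NCAPD3, a condensin subunit (r = 0.72 and 0.64), and ZNF74, a zinc finger protein (r = 0.69 and 0.69).

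Acute phase genes, whose transcription in hepatocytes responds to inflammation, had their highest group median in CO, which was not tested. The mean over 8 of 9 listed acute phase genes had a median of 14.63 without hormone (12.98 to 15.48), against 13.55 with estradiol (13.19 to 13.90), 13.30 with progesterone (13.06 to 15.15) and 13.45 with both (8.11 to 14.98). The mean over 6 of 10 listed B and plasma cell genes had a median of 8.38 without hormone (7.24 to 8.84), against 7.82 with estradiol (7.54 to 8.10), 7.95 with progesterone (7.39 to 8.95) and 7.83 with both (7.13 to 8.81). The lowest CO array for the acute phase list lay below all arrays of the other groups except E2P4T number 5. Both lists overlapped between groups, none of the deposited signals was 0, and the part of either in the ST6GAL1 values was not tested.

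**Figure D2:**
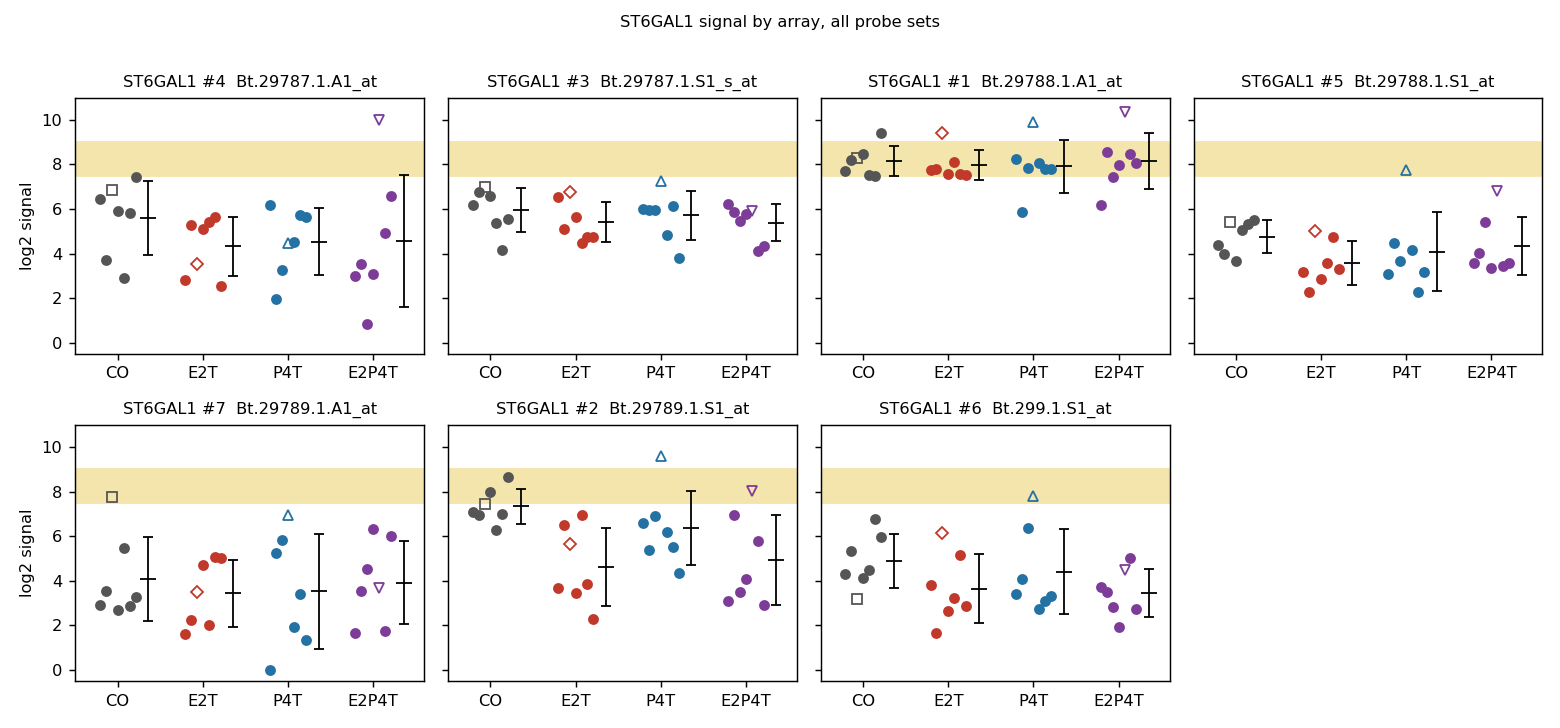
Log2 signal of the 7 ST6GAL1 probe sets on each array by group, with symbols, bars and the yellow band of array medians as in the plot of B4GALT1 and ST3GAL5. Most points lie below the band except at the brightest probe set (rank 1), and at the second brightest (rank 2) 5 of 7 E2T arrays and 5 of 7 E2P4T arrays lie below the lowest CO array (6.25).

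ST3GAL5 makes the ganglioside GM3 by adding sialic acid to lactosylceramide. With all 28 arrays it had the largest differences from CO for E2T and E2P4T among the genes other than B4GALT1 and ST6GAL1. For P4T, and without CO number 3 also for E2P4T, ST3GAL1 differed more. Without CO number 3 the E2T difference of MGAT1 was -1.09, against 1.08 for ST3GAL5. Without the 4 arrays of high spike signals MGAT1 differed by -1.50 for E2T and -1.45 for E2P4T, against 0.96 and 1.15 for ST3GAL5. At the brighter of the 2 ST3GAL5 probe sets the CO arrays ran from 5.04 to 9.37 with a median of 7.90. Arrays with estradiol ran from 8.58 to 9.53 (median 8.70), with progesterone from 6.94 to 9.27 (median 8.66) and with both from 8.09 to 9.49 (median 8.91). All 7 E2T arrays, 6 of 7 P4T arrays and all 7 E2P4T arrays lay above the CO mean of 7.41 ± 1.54 (SD, n = 7). So did 5 of the 7 CO arrays, and each group overlapped with CO.

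The difference from CO was 1.38 for E2T (2-sided exact permutation p = 0.024, limma adjusted p = 0.87), 1.06 for P4T (exact p = 0.14, adjusted 1) and 1.46 for E2P4T (exact p = 0.019, adjusted 0.93), each with a standard error of 0.45. These are 2.60-fold, 2.09-fold and 2.75-fold, and none passed the adjustment over 18775 probe sets. With all arrays, 24 exact tests compared a hormone group with CO for the 8 tested probe sets of genes other than B4GALT1 and ST6GAL1. They took all 3432 splits of 14 arrays into groups of 7. Together with other sets of arrays and E2P4T against P4T, 224 exact tests were run, and their p-values are not adjusted. CO number 1 (5.04) and CO number 3 (5.64) were the lowest of the 28 arrays. Without CO number 1 the differences were 0.98, 0.67 and 1.06, and without CO number 3 they were 1.08, 0.77 and 1.16. Leaving out each of the 28 arrays in turn, the unadjusted limma p stayed under 0.05 in all 28 fits for E2T and for E2P4T, and in 25 for P4T, where it was lost without CO number 1, CO number 3 or P4T number 7. Without the 4 arrays of high spike signals, a set chosen after seeing the data, the differences were 0.96, 1.02 and 1.15 (exact permutation p = 0.089, 0.093 and 0.058). In the 26 arrays without P4T number 4 and E2P4T number 5 they were 1.38, 1.32 and 1.45 (exact permutation p = 0.024, 0.061 and 0.041).

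The dimmer ST3GAL5 probe set also had higher means with each hormone, by less. Its CO arrays ran from 5.41 to 8.98 (median 7.09), E2T from 6.22 to 8.41 (median 7.60), P4T from 6.76 to 8.19 (median 7.92) and E2P4T from 5.61 to 8.43 (median 8.05). The differences were 0.26, 0.67 and 0.67 (standard error 0.49, exact permutation p = 0.66, 0.2 and 0.28, limma adjusted 0.94, 1 and 0.93). The lowest E2P4T array was E2P4T number 5 (5.61), and without it and P4T number 4 the differences were 0.26, 0.63 and 1.02 (exact permutation p = 0.66, 0.26 and 0.075). Without CO number 1 (5.41) they were -0.01, 0.40 and 0.39, so that the higher E2T mean rested on that array. Over the 28 arrays the pair of ST3GAL5 probe sets had r = 0.42 (permutation p = 0.025, adjusted 0.067) and rho = 0.09 (permutation p = 0.65, adjusted 0.87), with r = 0.29 without the 2 farthest arrays and 0.55 in the 26 arrays.

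ST3GAL4, which adds sialic acid to the galactose ends of N- and O-glycans, had its lowest mean with both hormones. The CO arrays ran from 9.56 to 10.66 (median 10.08), E2T from 9.38 to 10.31 (median 9.75), P4T from 9.11 to 10.42 (median 9.98) and E2P4T from 6.50 to 10.26 (median 9.39). Of the 7 E2P4T arrays 4 lay below the lowest CO array, and the groups overlapped. The differences were -0.32 for E2T, -0.16 for P4T and -0.91 for E2P4T (standard error 0.36, exact permutation p = 0.12, 0.5 and 0.041, limma adjusted 0.9, 1 and 0.93). E2P4T differed from P4T by -0.75 (exact permutation p = 0.12, limma adjusted 1), and by -0.29 (exact p = 0.24) without E2P4T number 5. Without P4T number 4 as well this difference was -0.44 (exact permutation p = 0.056). The value of 6.50 was that of E2P4T number 5, and without that array alone the difference of E2P4T from CO was -0.45 (exact permutation p = 0.084, limma adjusted 0.71). When P4T number 4 was left out too, the differences were -0.32, -0.01 and -0.45 (standard error 0.20, limma adjusted p = 0.56, 0.99 and 0.52).

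ST3GAL1, the enzyme that caps core O-glycans with sialic acid, had its lowest mean in P4T. The CO arrays ran from 4.22 to 9.36 (median 8.32), E2T from 7.12 to 8.82 (median 7.84), P4T from 5.17 to 8.67 (median 7.34) and E2P4T from 4.00 to 8.36 (median 7.79). In P4T 6 of 7 arrays lay below the CO mean of 8.02 ± 1.74 (SD, n = 7). The differences were -0.07, -1.09 and -0.69 for E2T, P4T and E2P4T (standard error 0.66, exact permutation p = 0.96, 0.19 and 0.45, limma adjusted 0.99, 1 and 0.95). The lowest arrays were CO number 3 (4.22) and E2P4T number 5 (4.00), and both set the outcome. Without CO number 3 the P4T difference was -1.73 (exact permutation p = 0.0076, limma adjusted 1) and the E2P4T difference -1.33 (exact p = 0.015, adjusted 1), whereas without E2P4T number 5 the E2P4T difference was -0.14 (exact p = 0.94, adjusted 0.96). The exact tests without these arrays were added after seeing the data and are among 224 exact tests with no adjustment, so no difference is read from their small p-values. Without E2P4T number 5 and P4T number 4 the differences were -0.07, -0.97 and -0.14. Without the 4 arrays of high spike signals the differences were -0.85 (exact permutation p = 0.032, limma adjusted 0.37), -1.61 (exact p = 0.0087, adjusted 0.63) and -0.77 (exact p = 0.019, adjusted 0.63).

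FUT8 and MGAT1, which act on the core and first branch of N-glycans, gave low signals and wide spread. The signal minimum for a test was reached by FUT8 only on E2P4T number 5, and by MGAT1 only there and on P4T number 4. FUT8 exceeded the array median on 0 arrays. It ran from 3.17 to 8.75 over the 28 arrays, and its differences were 0.69, 0.75 and 0.44 (standard error 0.77, limma adjusted p = 0.9, 1 and 0.98). The highest FUT8 value was that of E2P4T number 5, and without it and P4T number 4 the differences were 0.69, 0.51 and -0.07 (adjusted p = 0.72, 0.84 and 0.98). MGAT1 exceeded the array median on 6 arrays and ran from 3.31 to 9.46. Its differences were -0.82, 0.13 and -0.59 (standard error 0.88, limma adjusted p = 0.9, 1 and 0.97), and the highest arrays were again E2P4T number 5 (9.46) and P4T number 4 (9.20). Without these the differences were -0.82, -0.30 and -1.18 (adjusted p = 0.7, 0.92 and 0.61).

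**Figure D3:**
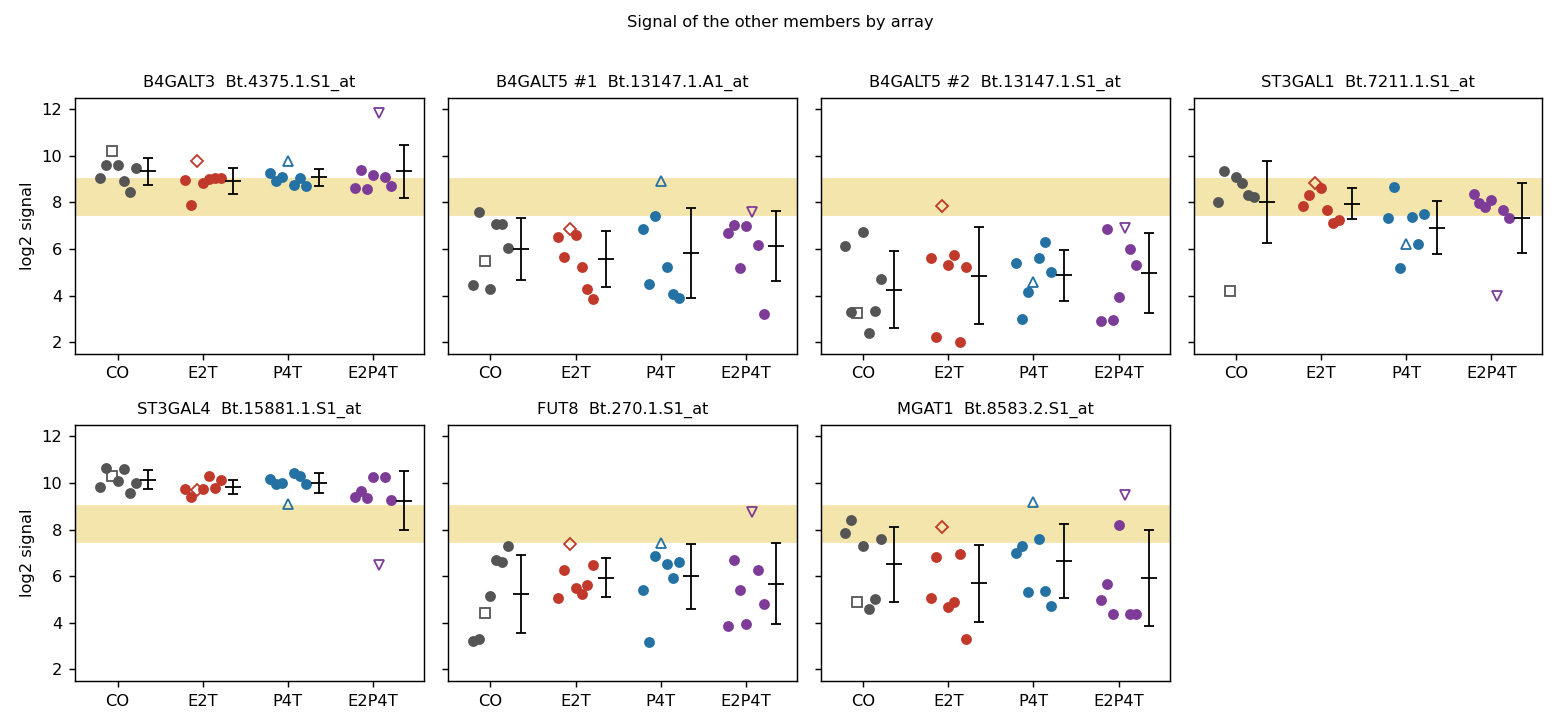
Log2 signal of B4GALT3, B4GALT5, ST3GAL1, ST3GAL4, FUT8 and MGAT1 on each array by group, with symbols, bars and the yellow band as in the plot of B4GALT1 and ST3GAL5. E2P4T number 5 (inverted triangle) is far above its group for B4GALT3 (11.83) and far below it for ST3GAL1 (4.00) and ST3GAL4 (6.50).

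Counted together, 13 of the 18 probe sets reached a signal of 350 on at least 1 array and were tested. FUT8 and the fourth brightest of ST6GAL1 did so only on E2P4T number 5, and the brighter of B4GALT5 only on P4T number 4. MGAT1 did so on these arrays alone. Against CO, 3 of 13 had an unadjusted limma p under 0.05 for E2T, 2 for P4T and 4 for E2P4T. The share of all 18775 probe sets tested was 5.44% for E2T, 2.78% for P4T and 4.91% for E2P4T. Nothing is read from these counts, since B4GALT1 and ST6GAL1 had chosen the genes. Of the 8 tested probe sets of the other genes, 1 passed for E2T, 1 for P4T and 2 for E2P4T, namely the brighter one of ST3GAL5 in each and ST3GAL4 in the last. The exact test gave 1, 0 and 2. Without P4T number 4 and E2P4T number 5 the limma counts were 1, 1 and 3 of 8, against 10.2%, 8.20% and 9.50% of all probe sets. The 8 still held FUT8, MGAT1 and the brighter of B4GALT5, which do not reach a signal of 350 without those arrays. No probe set of these genes, and 0 of all 18775, had an adjusted p under 0.05 in any comparison with all 28 arrays, the smallest adjusted limma p being 0.87 for E2T, 1 for P4T and 0.93 for E2P4T. In 0 of the 13 did a hormone group lie entirely outside the CO range, which held for 0.117%, 0.0213% and 0.032% of all probe sets.

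The median difference from CO over the 13 probe sets was -0.19 for E2T, -0.16 for P4T and 0.00 for E2P4T. Over all probe sets tested it was -0.10, -0.03 and -0.02. Of these 13 probe sets, 5 had a higher mean than CO for E2T, 6 for P4T and 7 for E2P4T, while 40.2%, 46.3% and 48.3% of all probe sets did. Between hormone groups, the 8 tested probe sets of the other genes held 1 unadjusted limma p under 0.05. It was that of ST3GAL4 for E2P4T against P4T (1.95% of all probe sets). This difference was -0.29 without E2P4T number 5, and -0.44 (standard error 0.21) without P4T number 4 as well. There were 0 for E2T against P4T (1.44%), for E2P4T against E2T (2.04%) and for the interaction of both hormones (2.99%).

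**Figure D4:**
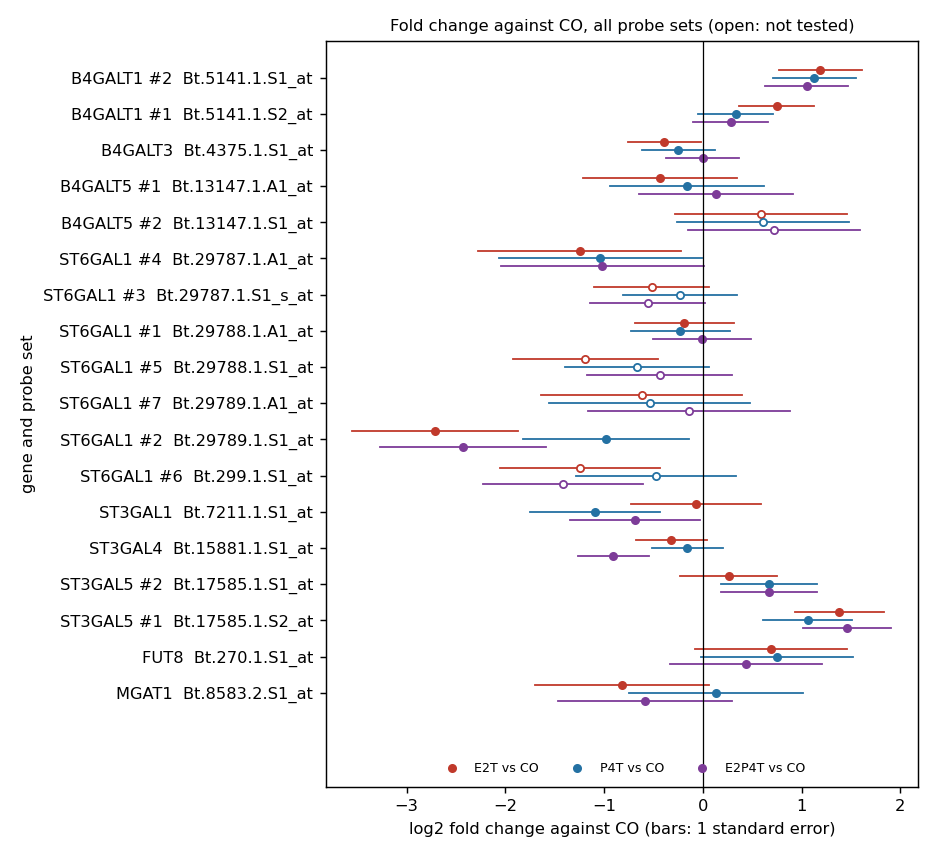
Log2 fold change against CO of each of the 18 probe sets for E2T (red), P4T (blue) and E2P4T (purple), with 1 standard error to each side as bars and open points for the 5 probe sets that were not tested. The points of the brighter ST3GAL5 probe set lie between 1.06 and 1.46. Those of the dimmer B4GALT1 probe set lie between 1.05 and 1.19 and those of ST6GAL1 run from -2.71 to -0.01, both genes having been selected for such differences.

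The wider glycan pathway was followed through 6 lists with 129 genes, of which 94 had a probe set and 90 a tested one. Of 117 tested probe sets, 4 were higher and 5 lower for E2T at an unadjusted limma p under 0.05 (7.69%, against 5.44% of all probe sets). For P4T it was 0 (0%, against 2.78%), and for E2P4T 0 higher and 7 lower (5.98%, against 4.91%). Without P4T number 4 and E2P4T number 5 the counts were 6 higher and 10 lower for E2T, 4 and 6 for P4T, and 5 and 12 for E2P4T, while the shares of all probe sets were 10.2%, 8.20% and 9.50%. The median difference of these probe sets was 0.02, -0.04 and -0.08, and 0 had an adjusted p under 0.05.

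Early steps in the endoplasmic reticulum were followed in the list of oligosaccharide donor and transfer, whose differences ran from -0.77 to 0.64 for E2T. STT3A, the catalytic subunit of the oligosaccharyltransferase, differed from CO by 0.23, -0.04 and -0.08 (standard error 0.29), and its partner DDOST by 0.14, -0.20 and -0.10 (0.31). In this list 1 of 31 tested probe sets was higher and 1 lower for E2T (6.45%, against 5.44% of all probe sets). For E2P4T 0 were higher and 1 lower (3.23%, against 4.91%). Counts this small, here and in the lists below, are not read as a result about a list. Among 11 probe sets of glycan trimming 1 was higher for E2T (9.09%, against 5.44%). It was the brighter of 2 for the glucosidase subunit GANAB (0.40, limma adjusted p = 0.87), whereas the dimmer GANAB probe set differed by 0.16 (adjusted 0.91). MAN2A1, the Golgi mannosidase that acts after MGAT1, differed by 0.02, -0.07 and -0.40 (standard error 0.25) at its tested probe set.

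Among the other branching, galactosyl- and fucosyltransferases 0 were higher and 2 of 19 lower for E2T (10.5%, against 5.44% of all probe sets). For E2P4T 0 were higher and 3 lower (15.8%, against 4.91%). Of 8 probe sets of other sialyltransferases 1 was higher and 0 lower for E2T, where 5.44% of all probe sets passed in either direction. The counts for E2P4T were 0 higher and 1 lower, where 4.91% of all probe sets passed. ST3GAL6, a relative of ST3GAL4, differed by 0.59, 0.50 and 0.40 (standard error 0.29, limma adjusted p = 0.87, 1 and 0.93). ST6GALNAC6, which acts on gangliosides, differed by -0.35, -0.13 and -0.29 at its brighter probe set (standard error 0.18, limma adjusted p = 0.87, 1 and 0.93).

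The supply of sugar donors held 1 probe set higher and 1 lower of 28 for E2T (7.14%, against 5.44% of all probe sets). For E2P4T 0 were higher and 2 lower (7.14%, against 4.91%). SLC35A1, the Golgi carrier of the donor of sialic acid, differed by 0.37, 0.28 and 0.30 (standard error 0.17, limma adjusted p = 0.87, 1 and 0.93). The carrier of UDP-galactose, SLC35A2, differed by 0.35, -0.10 and 0.15 at the brighter probe set (standard error 0.23) and by -0.77, 0.77 and 0.14 at the dimmer (0.66), so that its probe sets gave opposite signs for E2T and P4T. UGP2, which makes UDP-glucose, differed by 0.21, -0.16 and -0.01 (0.38).

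On the side of removal and recognition, 1 of 20 probe sets was lower for E2T (5%, against 5.44% of all probe sets) and 0 passed in the other comparisons. NEU1, a lysosomal sialidase, differed by -0.03, 0.15 and -0.15 (standard error 0.24), and GLB1, a lysosomal galactosidase, by 0.22, 0.05 and 0.05 at the brighter of 2 probe sets (0.23). ASGR1, a subunit of the asialoglycoprotein receptor, stood at 14.41 ± 0.12 (SD, n = 7) in CO and differed by -0.03, -0.07 and -0.75 (0.49), with 0.00 for E2P4T without P4T number 4 and E2P4T number 5. The other subunit, ASGR2, differed by 0.07, -0.06 and -0.75 at the brighter of 2 probe sets (0.43), and by -0.12 for E2P4T without those arrays. LALBA, the milk protein that turns B4GALT1 to lactose synthesis, differed by -1.76, -1.07 and 0.49 (standard error 0.87, limma adjusted p = 0.87, 1 and 0.98).

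**Figure D5:**
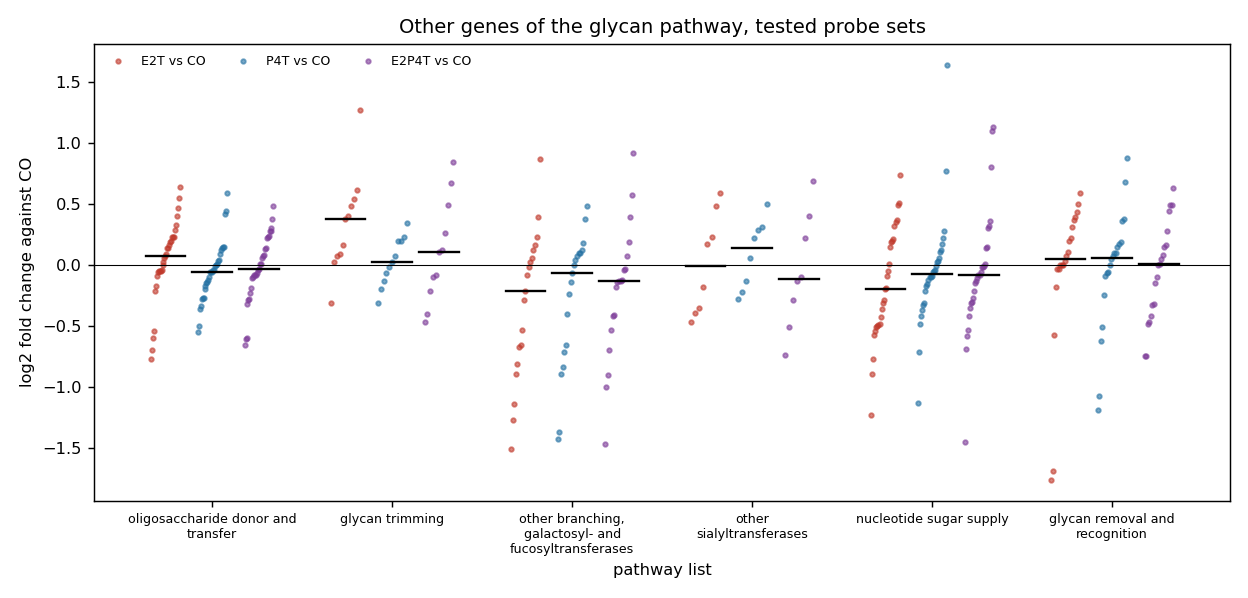
Log2 fold change against CO of each of the 117 tested probe sets of 6 glycan pathway lists for E2T (red), P4T (blue) and E2P4T (purple), with a black line at the median of each list. The medians lie between -0.21 and 0.38, the highest being that of glycan trimming for E2T over 11 probe sets.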

How the data were processed

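The authors hybridized biotin-labelled cRNA of each liver biopsy to the Affymetrix Bovine GeneChip, and deposited MAS5 signal intensities on a linear scale, scaled to a common trimmed mean; detection calls were not used here. Scaling of this kind makes signals relative to the array total. The study excluded outlying arrays of P4T and E2P4T, and whether these are among the 28 used here cannot be told from the labels. It analysed more arrays of CO and of E2T than the 7 of each used here, so the arrays are not the same set. The 112 control probe sets were excluded, log2 was taken of the signals as deposited, and probe sets with a maximum of at least 350 were tested (18775). The maximum was taken over all 28 arrays, and the same probe sets were kept in fits that left arrays out. R 4.3.3 and limma 3.58.1 fitted group means over all arrays (lmFit, eBayes with trend), with Benjamini and Hochberg adjustment and a threshold of 0.05. A term for cow or period was not fitted, since the labels give neither. Gene symbols came from the platform annotation, and 13292 probe sets had 1 symbol.

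The genes, gene lists (6 of the glycan pathway, 8 of cell types and acute phase), named genes and alternatives were chosen with earlier results of these data known. Every probe set of the 10 genes was named; other genes were named by role, by likeness over 26 arrays, or as markers. The fit was tested on simulated data. Correlations were tested with 1e+05 permutations, and single probe sets of genes other than B4GALT1 and ST6GAL1 also by exact permutation of arrays between groups, a test added after the data were seen. Probe sets of 1 gene are told apart by the rank of their mean signal. Replicate numbers were not taken to pair arrays, and 0 array pairs were identical. The number of arrays limits the precision. Sequences were not analysed here.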

Additional observations from a re-analysis of the deposited data

Results flagged for a closer look

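In each of 72 sets of 7 arrays (18 probe sets in 4 groups) the highest and lowest array were compared with the others. In 10 sets an array stood apart by a gap to the nearest array that, as a share of the range of its group, exceeded Dixon's 95% critical value, where chance gives about 1 in 20 sets. All 10 arrays concerned were among the 4 with the highest spike signals. E2P4T number 5 stood apart for B4GALT3 (11.83, the other arrays between 8.56 and 9.38), ST3GAL1 (4.00, others 7.35 to 8.36), ST3GAL4 (6.50, others 9.25 to 10.26) and the dimmer probe set of ST3GAL5 (5.61, others 7.47 to 8.43). P4T number 4 stood apart for the fifth brightest of ST6GAL1 (7.76, others 2.26 to 4.49) and ST3GAL4 (9.11, others 9.97 to 10.42). E2T number 3 stood apart for the brighter of B4GALT1 (8.99, others 10.78 to 11.71), the brightest of ST6GAL1 (9.43, others 7.54 to 8.09) and the brighter of ST3GAL5 (9.53, others 8.58 to 8.73). CO number 3 stood apart for ST3GAL1 (4.22, others 8.01 to 9.36).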

How the results depend on the processing

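With 1 probe set per gene, that of highest mean, 1 probe set had an unadjusted p under 0.05 for E2T, 1 for P4T and 2 for E2P4T, against 3, 2 and 4 with all 13. The shares of all probe sets in that fit were 5.44%, 2.78% and 4.91%. Nothing is read from these counts or those that follow, since they hold B4GALT1 and ST6GAL1, which had chosen the genes. In a fit of only the 2 groups compared the count for P4T was 1. Without the 4 arrays of high spike signals (chosen after seeing the data) the count for E2T was 5, where 13.4% of all probe sets passed. The median difference for E2T was 0.28 over the 6 of the 13 probe sets with a mean signal above the median of all probe sets. Leaving out each array in turn, the counts ran from 3 to 4 for E2T, 1 to 3 for P4T and 4 to 5 for E2P4T, with 1 for P4T without CO number 1 or P4T number 7. The medians ran from -0.30 to -0.03, -0.30 to 0.17 and -0.14 to 0.13. With the replicate number as a block the counts were 4, 2 and 4 (6.59%, 3.34% and 6.02% of all probe sets) and the medians -0.19, -0.16 and 0.00. The labels give the numbers no meaning, and the deviations of arrays with the same number correlated from -0.21 to 0.32, with 14 of 42 pairs over 0.1, so the numbers were not treated as pairs. As a hint from the data, 11 of 28 arrays correlated best with an array of their own number, where 4 are the mean if partners are drawn at random from the other groups. For the 8 tested probe sets of the other genes, an exact permutation test (added after seeing the data) gave 0 for P4T, against 1. The causes of these shifts were not tested.

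The median difference of all probe sets for E2T was -0.10, and 0.03 after quantile normalization and 0.17 after median centring, which turned the median of the 13 probe sets from -0.19 to 0.04 and 0.08. Of 54 differences from CO, none moved by 1 SD or more in 489 other values. This SD was that of single arrays within groups, wider than the standard error of a difference, so large shifts can stay below it. At the second brightest ST6GAL1 probe set the E2T difference of -2.71 went to -1.34 in 1 alternative, within an SD of 1.62. The count is therefore no sign of stability. Of the 489 values 21 changed sign, as did 39 of 1512 values with 1 array left out. No adjusted p of these genes was under 0.05 in any alternative. Low signals limit FUT8, B4GALT5 and most ST6GAL1 probe sets.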

Other observations

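Marker lists of other cell types, of the liver and of kidney epithelium, overlapped between all groups. The mean over 13 genes of macrophages and other leukocytes had a median of 10.29 without hormone, against 10.44 with estradiol, 10.60 with progesterone and 10.17 with both. For 9 endothelium genes the medians, in the same order, were 9.04, 9.01, 9.22 and 9.04, and for 8 stellate cell genes 8.91, 8.83, 8.84 and 8.88. The 8 kidney epithelium genes had medians of 6.10, 5.75, 5.71 and 6.19, and the 8 bile duct epithelium genes 8.09, 8.12, 7.75 and 8.16.

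In the pathway lists, 4 genes chosen after their values were seen had an unadjusted limma p under 0.05 for the differences given here, at the brighter of 2 probe sets for ALG12 and the dimmer of 2 for GCNT1. ALG12, a mannosyltransferase of the oligosaccharide donor, differed from CO by -0.77 for E2T (limma adjusted p = 0.87) and -0.66 for E2P4T (adjusted 0.93). The dimmer ALG12 probe set differed by -0.54 (limma adjusted p = 0.88) and 0.08 (adjusted 0.99), so that the direction for E2P4T was not shared. C1GALT1, which makes the core O-glycan that ST3GAL1 caps, differed by -0.70 for E2P4T (limma adjusted p = 0.93) and by -0.45 (adjusted 0.52) without P4T number 4 and E2P4T number 5. GCNT1, which branches that core, differed by -1.27 for E2T (limma adjusted p = 0.87). ST3GAL3 differed by -0.74 for E2P4T (limma adjusted p = 0.93), and by -0.50 (adjusted 0.52) without the same arrays.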
